A study of Oncorhynchus mykiss with 9 samples.

Results

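Livers of rainbow trout held under moderate hypoxia were compared with livers of control trout, gene by gene. The comparison covers every gene with a mean of at least 1 FPKM (fragments scaled to gene length and to the mapped total of the library) over the 6 libraries involved, which left 14130 of the 42127 genes listed for these groups. The series holds 9 libraries of liver total RNA, all labelled wild-type: 3 from control trout, 3 from trout under moderate hypoxia and 3 from trout under acute hypoxia. An exposure of 12 h is stated for acute hypoxia in wording that may or may not extend to moderate hypoxia, and the oxygen levels are not given in the sources used here. Whether each library stands for its own fish, or several for a single animal or pool, is not stated, and the p-values below therefore measure the spread between libraries, which may be technical. Acute hypoxia enters only to show where moderate hypoxia differed from it.

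Cells sense falling oxygen largely through prolyl and asparaginyl hydroxylases that need oxygen to mark hypoxia-inducible factor (HIF) for destruction or to silence it. When the hydroxylases slow down, HIF pairs with ARNT proteins and drives genes for red cell production, iron handling, glucose use and feedback hydroxylases. In liver, stress hormones act beside this pathway: cortisol, through the glucocorticoid receptor, induces a well-known group of genes that includes FKBP5 and tyrosine aminotransferase. Liver also makes most plasma proteins and lipoproteins, stores glycogen and clears foreign compounds, and salmonid fish carry many of the genes involved as duplicated copies.

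The deposited FPKM sat higher in the moderate hypoxia libraries for most genes, so each library was divided by a median-of-ratios size factor, between 0.909 and 0.974 in control and between 1.03 and 1.13 in moderate hypoxia. All levels below are FPKM after this scaling unless called deposited, and all differences are moderate hypoxia minus control on the log2(FPKM + 0.5) scale, which understates the change of low genes. Before scaling the median gene was 0.16 log2 higher in moderate hypoxia, and 23.1% of tested genes were called higher and 4.78% lower, so that 82.8% of the calls were higher, against 51.2% after scaling. Sequencing depth, read from the ratios of low values, was 0.947 to 1.18 times that of control library 1 in control and 0.965 to 1.10 times in moderate hypoxia. Hepatocyte markers held 12.0% to 13.3% of all FPKM in control and 12.3% to 13.3% in moderate hypoxia, as the tissue label has it. Such shares were taken from deposited FPKM, in which the median gene was 0.16 log2 higher in moderate hypoxia, and were not adjusted for abundance or gene span. For most lists these shares did not overlap between control and moderate hypoxia, so a lack of overlap does not set a list apart.

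A difference that ran with gene properties remained after scaling and touches most of the gene groups below. The genomic span of a gene, introns included, was taken from an annotation table for 13985 of the tested genes and serves as a rough stand-in for transcript length. The genes with a span were cut into 10 groups of near-equal size. In the shortest group, spanning 0.168 to 3.30 kb, the median log2 difference was -0.22 and 25.9% were lower, while in the longest group, spanning 67.7 to 1191 kb, it was 0.22 and 31.0% were higher. The tilt was present in every library: relative to the mean of all 6, the shortest genes lay 0.06 to 0.18 log2 above in the 3 control libraries and 0.07 to 0.14 log2 below in the 3 moderate hypoxia libraries. With all tested genes cut into 10 groups by mean FPKM, the most abundant group had a median of -0.21 and the least abundant a median of 0.08. A second fit, added after the data were seen, first scaled the libraries by cyclic loess, against the trend over abundance. It then removed the trend over gene span within each library, and is called the adjusted fit below. In it the shortest and longest groups had medians of -0.01 and -0.02. The least and most abundant groups had medians of -0.04 and 0.05, with 3.32% and 19.4% called higher and 4.95% and 9.98% lower. The part of gene length and abundance in each result was not tested otherwise.

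**Figure D1:**
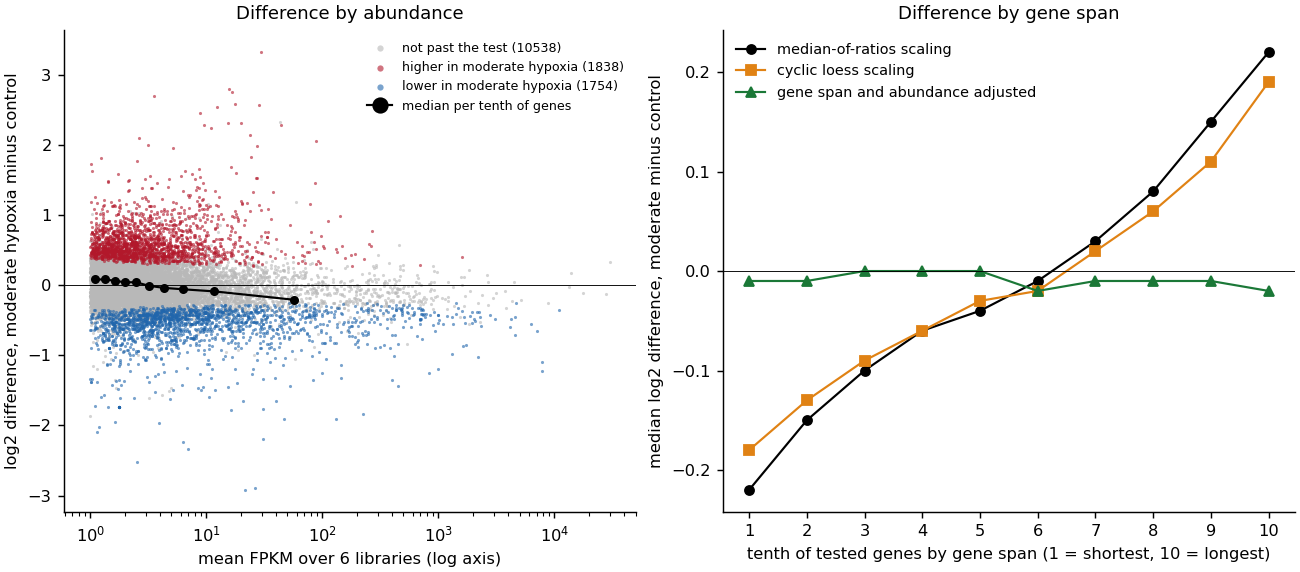
Left, log2 difference of each tested gene (moderate hypoxia minus control, 3 libraries each) against its mean FPKM on a log axis, with the genes past the limma test in colour and the median of each of 10 abundance groups in black. Right, median log2 difference of each of 10 groups of genes by genomic span, from the shortest (-0.22) to the longest (0.22), under median-of-ratios scaling, cyclic loess scaling and the adjusted fit, in which the line is flat.

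Moderate hypoxia and control libraries differed in a large share of the tested genes, mostly by small amounts. With limma and Benjamini-Hochberg adjustment, 3592 genes (25.4% of those tested) had an adjusted p under 0.05, of which 1838 (13.0%) were higher and 1754 (12.4%) lower. The log2 difference was at least 1 in size for 285 genes (2.02%), 163 of the higher genes (1.15%) and 122 of the lower ones (0.863%). The adjusted fit called 2699 genes (19.1%), 1504 higher (10.6%) and 1195 lower (8.46%), and 1194 and 969 of these were the same genes as before. Counts fell to 1757 genes without control replicate 1 (945 higher, 812 lower) and to 2201 without moderate hypoxia replicate 1 (1099 higher, 1102 lower). List counts from such fits below are to be read beside these totals.

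The genes that rose most included a GABA receptor subunit, a synaptic vesicle protein and several ubiquitin pathway genes. GABRB2, which encodes the receptor subunit, stood at 3.87, 2.62 and 3.63 FPKM in control and at 28.7, 23.5 and 26.5 FPKM in moderate hypoxia. The groups lay far apart, with a log2 difference of 2.80 ± 0.14 (SE, n = 3 each; limma adjusted p = 5.93e-05). UNC13C, a vesicle priming protein of synapses, rose by 2.75 ± 0.24, and inppl1a, a phosphatase that removes a phosphate from an insulin signalling lipid, by 2.58 ± 0.20 (limma adjusted p = 0.00049 and 0.000265). The deubiquitinase USP9X (2.57), the cullin exchange factor CAND1 (2.31), the kelch-like protein KLHL4 (2.31), the ubiquitin ligase TRAF7 (2.28) and Ikbkg (2.24), the regulatory subunit of the kinase that activates NF-kappa-B, also rose. In each of these the groups did not overlap, as for 43.3% of all tested genes, and all of them span 24.7 kb or more. The gene model with the largest rise, 3.32, carries only a product name borrowed from another salmon species and no symbol.

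The largest fall was that of the mitochondrially encoded ATP8 (-2.92), a gene of 168 bases described with the respiratory chain below. Other large falls were in genes for an extracellular protease, a vitamin D enzyme and plasma proteins. A copy of ADAM12, a membrane-bound metalloproteinase, stood at 46.2, 40.1 and 60.2 FPKM in control and 4.33, 8.13 and 6.32 FPKM in moderate hypoxia, a log2 difference of -2.89 ± 0.21 (limma adjusted p = 0.000232). A second ADAM12 copy fell by 1.91. CYP24A1, the enzyme that inactivates vitamin D hormone, held 12.7, 11.6 and 13.5 FPKM in control and 2.05, 2.34 and 1.88 FPKM in moderate hypoxia. Its groups were clearly apart and it fell by 2.34 ± 0.11. A2ML1, a protease inhibitor of the alpha-2-macroglobulin family, fell by 2.24, and histone H3-I by 1.78. Both h2ax entries fell by 1.74 with identical values in all libraries, so their reads may have been shared between copies and each is uncertain by itself. A polyubiquitin gene, UBB, was called with a log2 difference of -2.52, but its control libraries held 0.489, 4.79 and 10.5 FPKM, and the call held in 10 of 18 alternative fits.

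The few genes of the oxygen-sensing pathway that passed the test were all higher. The list median stayed near 0, at -0.01 log2 and at -0.03 in the adjusted fit. Of 18 tested pathway genes 4 rose (22.2%, against 13.0% of all) and none fell (against 12.4% of all). The adjusted fit kept 2 of them, near its share of 10.6% over all tested genes, and 2 were called without control replicate 1. The clearest was fih1, the asparaginyl hydroxylase that blocks HIF activity, which stood at 2.25, 2.08 and 2.35 FPKM in control and at 7.68, 6.21 and 6.23 FPKM in moderate hypoxia. The groups did not overlap and the log2 difference was 1.40 ± 0.11 (limma adjusted p = 0.00031). The HIF partner arnt2 rose by 0.72 ± 0.14, and egln1 and EGLN2, which encode HIF prolyl hydroxylases, by 0.59 ± 0.17 and 0.66 ± 0.16. The last 2 lost their calls in the adjusted fit (adjusted p = 0.0929 and 0.0656).

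Known HIF target genes went in both directions: 11 of 43 tested rose and 6 fell, against 13.0% and 12.4% of all genes, and the adjusted fit had 9 higher and 4 lower, of which 8 and 4 were the same genes. Without control replicate 1, 7 were higher and 3 lower. Heme oxygenase, which breaks down heme, led the rise. One hmox gene held 7.34, 7.97 and 8.67 FPKM in control and 32.0, 45.3 and 34.3 FPKM in moderate hypoxia, and its copy held 7.57, 5.69 and 8.48 FPKM against 23.1, 30.2 and 19.7 FPKM. Both copies were higher in every moderate hypoxia library than in any control library, with log2 differences of 2.14 ± 0.14 and 1.68 ± 0.18 (limma adjusted p = 0.000115 and 0.000882). The insulin-like growth factor binding protein genes igfbp1 and igfbp1a rose by 1.05 ± 0.11 and 0.64 ± 0.15. TFRC, a receptor for iron-loaded transferrin, rose by 0.92, P4HA1, a collagen prolyl hydroxylase, by 0.66, and vegfaa, a vessel growth factor, by 0.41 from a mean of 1.0 ± 0.0788 FPKM (SD, n = 3). The vegfaa call was lost in the adjusted fit (adjusted p = 0.0895). The genes that fell included ndrg1a (-0.60), the mitochondrial Higd1a (-0.81), both Bhlhe40 copies (-0.63 and -0.37, the second not called in the adjusted fit) and mxi1, a repressor of Myc (-0.41).

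Erythropoietin, the hormone of red cell production and a classical HIF target, lay below the abundance filter. Its deposited values were 0.357, 0.401 and 0.378 FPKM in control and 1.364, 1.406 and 1.146 FPKM in moderate hypoxia. All 3 moderate hypoxia libraries exceeded all 3 control libraries (two-sided exact permutation p = 0.1, the smallest that 3 against 3 allow), and limma without the filter gave 0.89 ± 0.12 (adjusted p = 0.01). The glucose transporter glut1a, a gene the study followed up, held deposited values of 0.280, 0.539 and 0.765 FPKM in control and 0.715, 0.572 and 0.808 FPKM in moderate hypoxia, so the groups overlapped. Its log2 difference was 0.11 ± 0.20 (two-sided exact permutation p = 0.6; limma adjusted p = 0.775 without the filter), and Slc2a1, another gene of the same transporter, gave 0.12 ± 0.14 (exact permutation p = 0.8). The other 3 genes of this transporter are listed at 0 in every library.

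Genes that respond to glucocorticoids rose more often than the members of any other list of at least 10 tested genes. The lists were chosen with earlier results of these data known, so this rank is a description and not a test. Of 37 tested members 19 rose (51.4%, against 13.0% of all) and none fell (against 12.4%), and the list median was 0.41 log2. The adjusted fit called 18 higher and 1 lower, against 10.6% and 8.46% of all, with 15 called higher in both. Their summed share of all FPKM rose from 0.106% ± 0.00774 to 0.171% ± 0.0187 (SD, n = 3) without overlap. zbtb16a, a transcriptional repressor strongly induced by glucocorticoids in mammals, held 0.818, 0.969 and 0.891 FPKM in control and 5.12, 5.17 and 4.89 FPKM in moderate hypoxia. It rose by 2.0 ± 0.10 (limma adjusted p = 5.93e-05), with little spread inside either group. zbtb16a passed the abundance filter only through its moderate hypoxia values. FKBP5, a chaperone of the glucocorticoid receptor, went from 5.79, 5.31 and 6.06 FPKM to 12.0, 14.3 and 11.9 FPKM, a rise of 1.08 ± 0.11. Tat, tyrosine aminotransferase, went from 20.5, 18.6 and 22.8 FPKM to 42.9, 55.7 and 59.5 FPKM, a rise of 1.32 ± 0.14. In all 3 genes the groups were apart. The transcription factor cebpd rose by 0.90, the clock gene Per1 by 1.05 and the phosphatase gene dusp1 by 0.67. With 1 library left out, 13 to 19 members were higher, the fewest without control replicate 1.

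**Figure D2:**
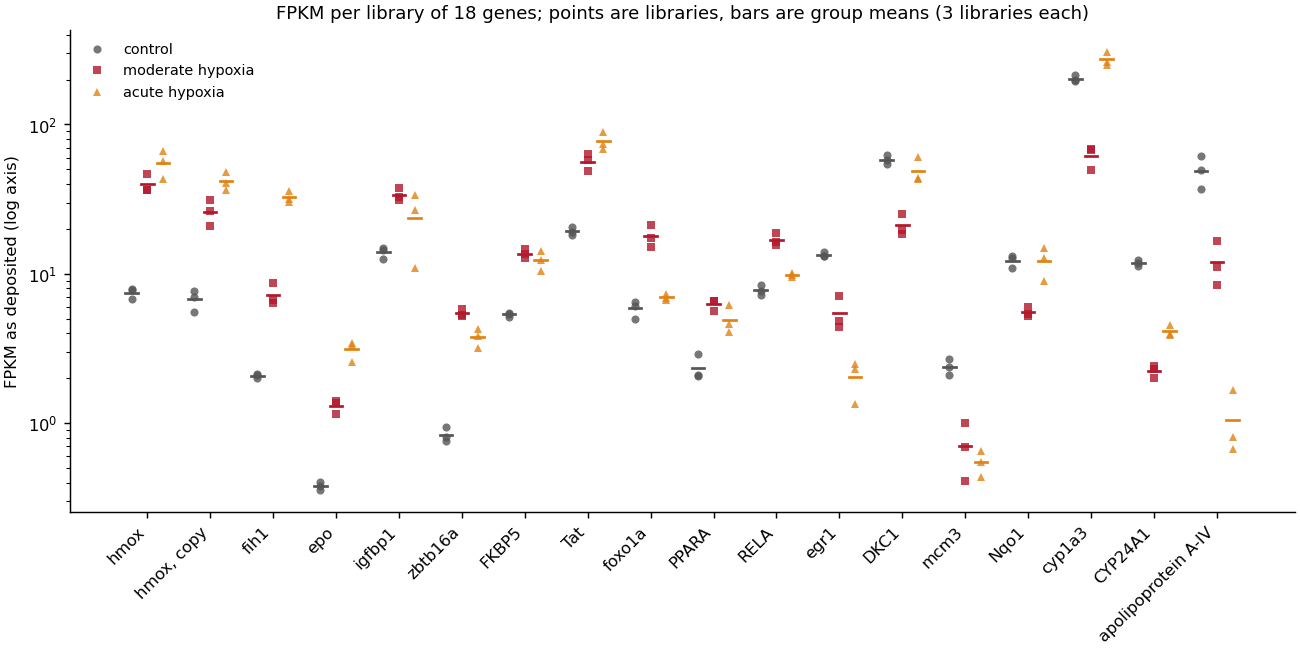
Deposited FPKM, on a log axis, of 18 genes in each library of control, moderate hypoxia and acute hypoxia; points are libraries and bars are means of 3. The hmox copies, fih1, epo, zbtb16a, FKBP5 and Tat lie higher in all 3 moderate hypoxia libraries than in control, and egr1, DKC1, mcm3, Nqo1, cyp1a3, CYP24A1 and an apolipoprotein A-IV gene lie lower.

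Clock genes and insulin signalling genes rose more often than they fell. Of 42 clock genes 12 rose (28.6%, against 13.0% of all) and 5 fell (11.9%, against 12.4%). The adjusted fit had 10 higher and 4 lower, against 10.6% and 8.46% of all. Arntl, a positive arm of the clock, rose from 0.919, 0.833 and 1.02 FPKM to 2.99, 2.40 and 2.32 FPKM, a log2 difference of 1.10 ± 0.13. Arntl passed the abundance filter only through its moderate hypoxia values. Its partner Clock rose by 0.81 ± 0.14. One HLF copy, a clock output factor, rose by 0.79, while another HLF copy and TEF fell by 0.34 and 0.42, the HLF fall not being called in the adjusted fit (adjusted p = 0.0643). The times of day at sampling are not given in the sources used here. Of 64 insulin and FoxO genes 13 rose (20.3%, against 13.0% of all) and 4 fell (6.25%, against 12.4%). The adjusted fit had 10 higher and 2 lower, and 7 were higher and none lower without control replicate 1. A copy of foxo1a, which drives fasting genes when insulin is low, stood at 6.98, 5.13 and 6.74 FPKM in control and 18.9, 14.7 and 16.3 FPKM in moderate hypoxia. It rose by 1.34 ± 0.14 without overlap, and a second copy rose by 0.96 ± 0.14. The insulin receptor gene INSR rose by 0.61, and sesn1, a stress-induced inhibitor of growth signalling, fell by 0.59.

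Glycolysis did not rise as a group. Of 30 tested glycolytic genes none rose (against 13.0% of all) and 2 fell (6.67%, against 12.4%), among them the enolase gene eno1b by 0.41. Neither was called in the adjusted fit, which had 2 other members higher and none lower. The share of FPKM held by glycolytic genes overlapped between the groups, at 0.513% to 0.556% in control and 0.528% to 0.568% in moderate hypoxia. Of 13 gluconeogenic genes 2 fell (15.4%, against 12.4% of all), both FBP1 copies that encode fructose-1,6-bisphosphatase, by 0.49 and 0.30. The adjusted fit had 2 lower and 1 higher, and in it the smaller FBP1 fall turned to 0.05. Of 31 glycogen genes 5 rose (16.1%, against 13.0% of all) and 2 fell (6.45%, against 12.4%). The adjusted fit also had 5 higher and 2 lower, but only 4 of the higher and none of the lower genes were shared. Without control replicate 1, 2 were higher and 0 lower. Both phka2 genes, which encode the regulatory subunit of the liver kinase that switches on glycogen breakdown, rose: one from 0.758, 0.711 and 0.908 FPKM to 2.55, 2.41 and 1.98 FPKM (1.12 ± 0.13, limma adjusted p = 0.00104), the other by 0.89. Both passed the abundance filter only through their moderate hypoxia values. ppp1r3b, which promotes glycogen synthesis, fell by 0.56 and lost its call in the adjusted fit (adjusted p = 0.0587). Among 62 genes of the citric acid cycle and pyruvate oxidation, 6 rose (9.68%, against 13.0% of all) and 5 fell (8.06%, against 12.4%). The adjusted fit called the same 6 and 1 more higher and 2 lower, none of them among the 5, and 1 was lower without control replicate 1. PDP1, a phosphatase that activates pyruvate dehydrogenase, rose by 0.85, ogdh by 0.59, and Pdk2, a kinase that inactivates pyruvate dehydrogenase, fell by 0.61 and lost its call in the adjusted fit (adjusted p = 0.0994).

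Amino acid breakdown genes gave no balance that held across the fits. Of 97 genes 5 rose (5.15%, against 13.0% of all) and 17 fell (17.5%, against 12.4%), but 12 rose and 6 fell in the adjusted fit. bhmt, which remakes methionine from homocysteine, went from 76.0, 74.3 and 80.2 FPKM to 50.6, 47.7 and 44.1 FPKM (-0.69 ± 0.09). MAT1A, which makes S-adenosylmethionine, and gnmt, which consumes it, fell by 0.56 and 0.50, and all 3 were also called in the adjusted fit. uroc1, of histidine breakdown, rose from 193, 201 and 180 FPKM to 295, 328 and 360 FPKM (0.77 ± 0.10). Among 36 amino acid transporters 7 rose (19.4%, against 13.0% of all) and 2 fell (5.56%, against 12.4%). The adjusted fit had 5 higher and 2 lower, with neither lower gene shared. The rise was led by slc43a1a (1.03), the cationic transporter Slc7a1 (1.01) and SLC38A4 (0.61).

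Genes of the respiratory chain were lower as a group, to an extent that depended on the adjustment for gene span and abundance. Of 163 tested genes 65 were lower (39.9%, against 12.4% of all) and 2 higher (1.23%, against 13.0%). The adjusted fit had 28 lower and 12 higher, against 8.46% and 10.6% of all. Without control replicate 1, 38 were lower. NDUFS6, a subunit of complex I, held 8.47, 7.51 and 7.58 FPKM in control and 3.84, 3.65 and 3.49 FPKM in moderate hypoxia, a fall of 1.01 ± 0.10 that was 0.85 in the adjusted fit. Both genes that rose were sdha copies (0.44 and 0.65), which encode the flavoprotein of complex II. Among the 13 genes encoded by mitochondrial DNA, 10 were lower and none higher, with 4 lower and 1 higher in the adjusted fit. ATP8, a small subunit of ATP synthase whose gene is 168 bases long, went from 43.7, 40.5 and 36.4 FPKM to 6.15, 5.61 and 3.27 FPKM, a fall of 2.92 ± 0.20. ND3 (349 bases) fell by 1.77 and ATP6 (672 bases) by 1.32, while COX1 (1551 bases), at 2452 ± 249 FPKM in control and 2713 ± 202 FPKM in moderate hypoxia, gave 0.15 ± 0.10 (limma adjusted p = 0.315). The falls did not follow length throughout. ND2 (1050 bases) fell by 1.36, ND4L (297 bases) by 0.89, COX2 (691 bases) by 0.48 and the longest gene, ND5 (1839 bases), by 0.63. Most of these genes are transcribed from a shared long precursor. The summed FPKM share of all 13 overlapped between groups at 1.52% ± 0.0787 and 1.48% ± 0.185 (SD, n = 3). Of 93 mitochondrial ribosomal protein genes 25 were lower (26.9%, against 12.4% of all) and none higher, with 13 lower in both fits. Without moderate hypoxia replicate 1, 13 were lower. Examples are mrps18c (-0.93) and Mrps28 (-0.88).

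**Figure D3:**
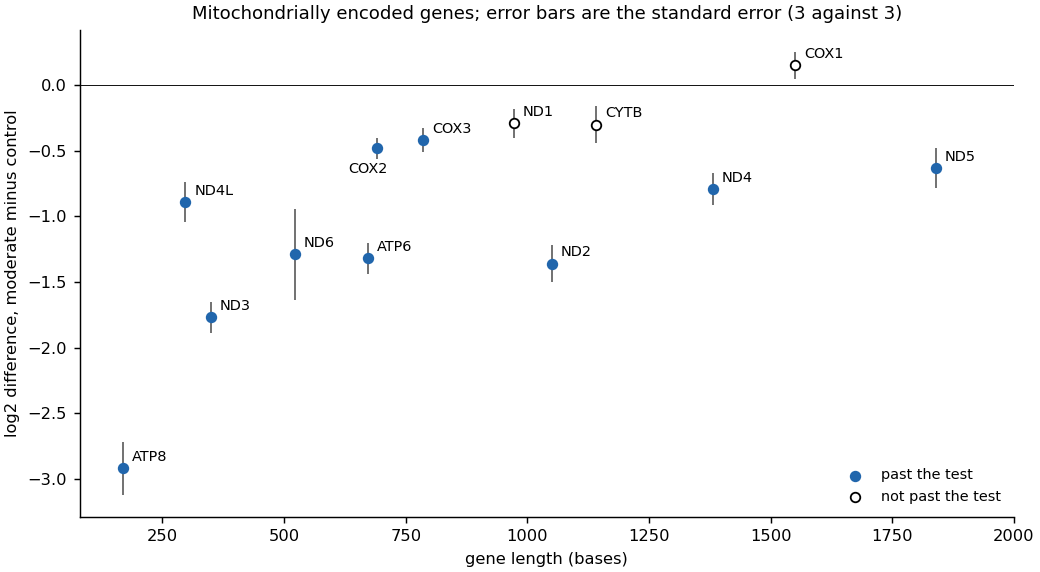
Log2 difference (moderate hypoxia minus control) of the 13 mitochondrially encoded protein genes against gene length in bases; bars are standard errors from limma with 3 libraries a group. The shortest gene, ATP8, lies lowest at -2.92, and COX1, one of the longest, lies at 0.15. The order by length is not complete: ND2 (1050 bases) lies at -1.36 and COX2 (691 bases) at -0.48.

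Genes of fatty acid oxidation were lower more often than higher. Of 40 tested genes 17 fell (42.5%) and 4 rose, and 8 fell and 4 rose in the adjusted fit. Without control replicate 1, 6 were lower and 2 higher. PPARA, the nuclear receptor that induces fatty acid oxidation, rose from 2.27, 2.96 and 2.29 FPKM to 5.80, 6.42 and 5.31 FPKM, a log2 difference of 1.08 ± 0.12 (limma adjusted p = 0.00107). The groups did not overlap. The mitochondrial acylcarnitine carrier SLC25A20 rose by 0.97 ± 0.11. The other 2 genes that rose, cpt1ab (0.45) and a CPT1A copy (0.46), encode carnitine palmitoyltransferases, which start fatty acid import into mitochondria. All 4 were also higher in the adjusted fit. ACADL, a long-chain acyl-CoA dehydrogenase, fell by 0.94 ± 0.16 and decr1, which helps to oxidise unsaturated fatty acids, by 0.73 ± 0.10. On the synthetic side 5 of 45 genes rose (11.1%) and 6 fell (13.3%), near the 13.0% and 12.4% of all genes. The adjusted fit had 2 higher and 6 lower. Among those that fell were 3 enzymes of long-chain polyunsaturated fatty acid synthesis. Elovl2 went from 138, 132 and 136 FPKM to 75.6, 79.6 and 73.9 FPKM (-0.82 ± 0.08), fads2 fell by 0.82 ± 0.13 and elovl5 by 0.80 ± 0.13. All 3 were also lower in the adjusted fit. ACACB, which makes the malonyl-CoA that restrains fatty acid import into mitochondria, rose by 0.62.

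Cholesterol genes were lower more often than higher. Of 35 tested genes 13 fell (37.1%, against 12.4% of all) and 1 rose (2.86%, against 13.0%). In the adjusted fit 6 fell and 1 rose, against 8.46% and 10.6% of all. msmo1, a sterol demethylation enzyme, went from 38.8, 36.8 and 35.3 FPKM to 22.4, 20.6 and 14.1 FPKM (-0.97 ± 0.16), and sc5d fell by 0.72. The fewest lower calls when 1 library was left out numbered 5, without control replicate 1. Apolipoproteins showed how far a list can depend on scale: 16 of 33 genes were lower (48.5%, against 12.4% of all) and 1 higher (3.03%, against 13.0%). The adjusted fit had 5 lower and 5 higher, against 8.46% and 10.6% of all, and 8 were lower without control replicate 1. Their summed share of FPKM was larger in moderate hypoxia, at 17.3%, 18.2% and 19.8% against 16%, 17.2% and 15%. An apolipoprotein A-IV gene nevertheless fell in all fits, from 52.9, 62.8 and 40.7 FPKM to 14.6, 10.7 and 7.95 FPKM (-2.20 ± 0.22). An apolipoprotein C-I gene fell by 0.98 and an apolipoprotein A-I gene by 0.88, both also in the adjusted fit.

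Both tested cytochrome P450 1A genes, which the aryl hydrocarbon receptor controls with the ARNT partner it shares with HIF, were strongly lower. cyp1a3 held 215, 219 and 214 FPKM in control and 44.1, 66.0 and 63.7 FPKM in moderate hypoxia, and cyp1a1 held 374, 368 and 350 FPKM against 88.2, 102 and 114 FPKM. The groups were far apart, with log2 differences of -1.91 ± 0.15 and -1.84 ± 0.10 (limma adjusted p = 0.000233 and 8.75e-05). Both ugt3 genes, which encode glucuronosyltransferases, fell by 1.33 and 1.34, and the quinone reductase gene Nqo1 fell by 1.27 ± 0.10. Of 84 bile acid and xenobiotic genes 29 were lower (34.5%, against 12.4% of all) and 6 higher (7.14%, against 13.0%). The adjusted fit had 9 lower and 8 higher, near its 8.46% and 10.6% of all, and 8 were lower without control replicate 1. Their FPKM share fell from 0.683% ± 0.00873 to 0.617% ± 0.0046 (SD, n = 3) without overlap. The bile acid receptor gene Nr1h4 rose by 0.48 and Ugt2a2 by 0.49. Among 70 antioxidant genes 23 were lower (32.9%, against 12.4% of all) and 3 higher (4.29%, against 13.0%). The adjusted fit had 12 lower and 4 higher, against 8.46% and 10.6% of all, and 11 were lower without control replicate 1. sod1 fell by 0.61, while both copies of keap1b, whose product restrains the antioxidant regulator NRF2, rose by 0.55 and 0.58.

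Ribosome assembly genes fell, and this held in the adjusted fit. Of 147 tested ribosome biogenesis genes 48 fell (32.7%, against 12.4% of all) and 3 rose (2.04%, against 13.0%). The adjusted fit had 36 lower and 3 higher, against 8.46% and 10.6% of all, and 34 genes were lower in both. DKC1, the enzyme that modifies uridines in ribosomal RNA, held 58.4, 63.6 and 63.8 FPKM in control and 22.1, 18 and 18.4 FPKM in moderate hypoxia. Its copy held 29.8, 34.8 and 33.0 FPKM against 10.8, 9.45 and 9.82 FPKM. Both copies fell by 1.65 ± 0.10 with no overlap (limma adjusted p = 0.000111 and 9.07e-05). The nucleolar gene nifk fell by 1.46 and nhp2, a partner of DKC1 in the same particle, by 0.76. The fewest lower calls with 1 library left out were 26, without control replicate 1. The summed share of FPKM overlapped between groups, at 0.193% to 0.238% in control and 0.203% to 0.230% in moderate hypoxia.

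Cytosolic ribosomal protein genes gave no direction that held across scalings. With median-of-ratios scaling 62 of 172 were lower (36.0%, against 12.4% of all) and 4 higher (2.33%, against 13.0%). In the adjusted fit 14 were lower and 48 higher, against 8.46% and 10.6% of all. Without control replicate 1, 34 were lower. These genes are short and abundant, with a median span of 4.56 kb against 13.8 kb for all tested genes. rps29 (-1.59) and rpl24 (-1.26) were lower in both fits, and rps19 (0.44) and rs19 (0.37) higher in both. Of 122 translation factor and tRNA ligase genes 12 were lower (9.84%, against 12.4% of all) and 4 higher (3.28%, against 13.0%). The adjusted fit had 8 lower and 12 higher. Of 103 proteasome genes 26 were lower (25.2%, against 12.4% of all) and none higher. The adjusted fit had 9 lower, near its 8.46% of all, and 2 higher, and 8 were lower without control replicate 1. psmb13a fell by 0.92 and PSMD13 by 0.69.

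**Figure D4:**
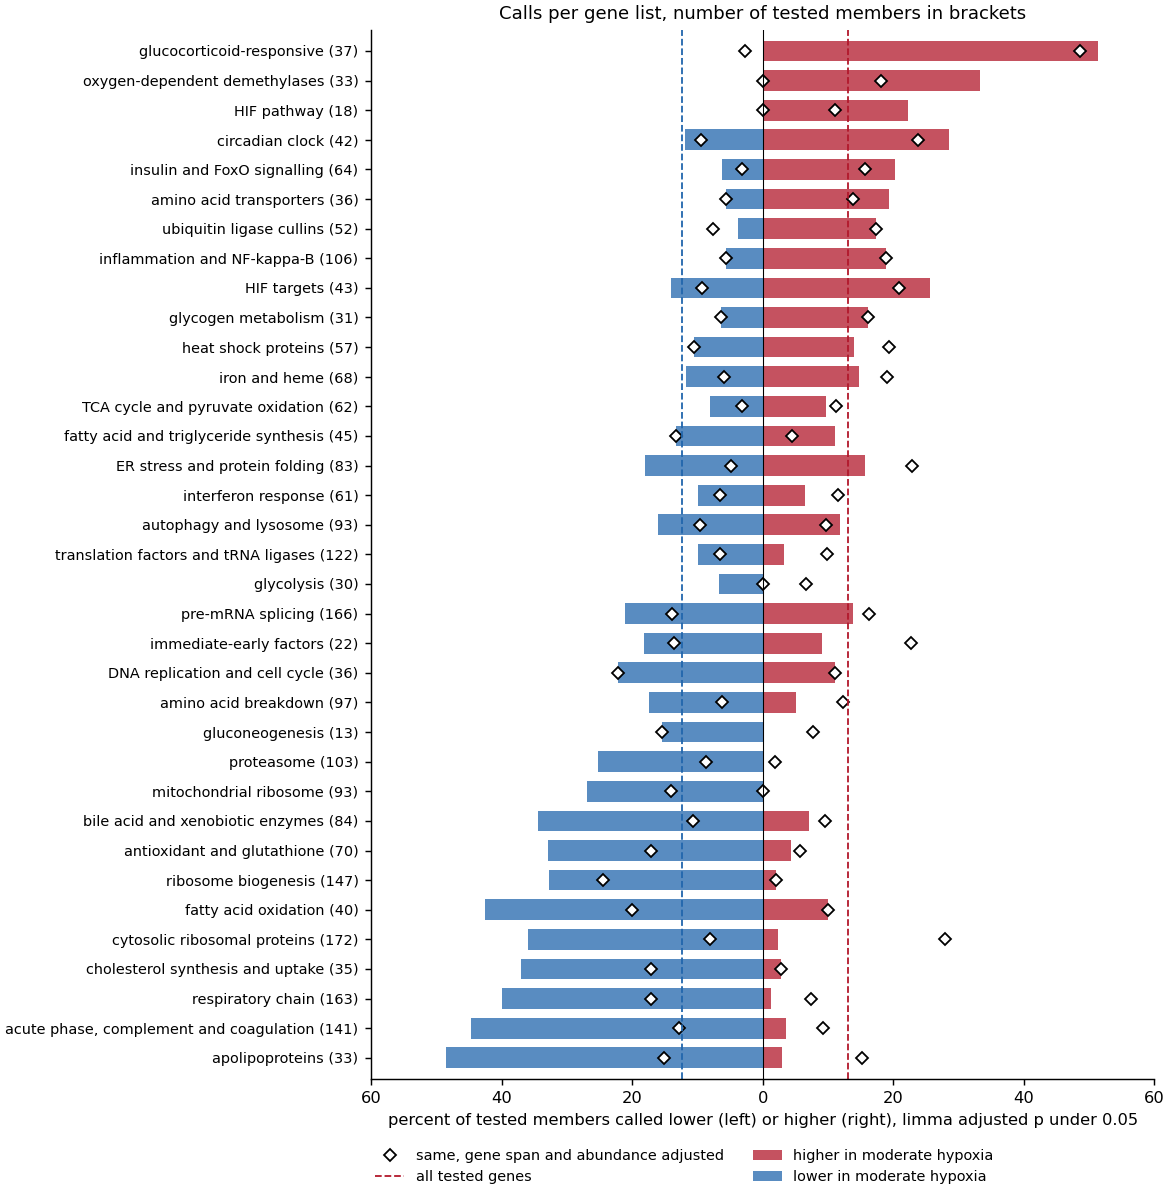
Percent of the tested members of each gene list that were lower (left, blue) or higher (right, red) in moderate hypoxia by limma, with the number of tested members in brackets; diamonds give the same from the adjusted fit and dashed lines the share over all tested genes (13.0% higher, 12.4% lower). Glucocorticoid-responsive genes stand at the top, with 51.4% higher, and apolipoproteins at the bottom, with 48.5% lower. The dashed lines do not apply to the diamonds. In the adjusted fit 10.6% of all tested genes were higher and 8.46% lower. The lists were chosen with earlier results of these data known.

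Splicing genes went both ways: of 166 tested, 23 rose (13.9%, against 13.0% of all) and 35 fell (21.1%, against 12.4%). The adjusted fit had 27 higher and 23 lower, and 15 were lower without control replicate 1. The core factor SF3B1 rose in both copies, from 5.80, 6.28 and 5.78 FPKM to 13.2, 11.3 and 12.1 FPKM (0.97 ± 0.10) in one and by 1.01 ± 0.09 in the other, and both prpf39 copies rose by 0.92 and 0.85. snrpg, a core small nuclear ribonucleoprotein, fell by 1.31 and SF3A2 by 0.78. Among 36 replication and cell cycle genes 8 fell (22.2%, against 12.4% of all) and 4 rose (11.1%, against 13.0%). Of these, 7 and 4 were also called in the adjusted fit. The helicase subunits mcm2, mcm3 and mcm4 fell by 1.34, 1.43 and 0.85. For example, mcm2 went from 1.78, 1.75 and 1.59 FPKM to 0.425, 0.280 and 0.422 FPKM. In moderate hypoxia mcm2 and mcm3 averaged 0.376 and 0.644 FPKM, so they passed the abundance filter only through their control values. ccnd1 fell by 0.70 and gadd45ga, a growth arrest gene, rose by 1.03. Of 22 immediate-early genes 4 fell (18.2%, against 12.4% of all) and 2 rose (9.09%, against 13.0%), with 3 and 5 in the adjusted fit. The 3 egr1 genes, growth factor response genes, fell by 1.49, 1.45 and 1.63; one went from 15.1, 13.6 and 14.5 FPKM to 6.28, 4.66 and 4.10 FPKM without overlap. One jun copy rose by 0.66 while the other, JUN, fell by 0.41 and lost its call in the adjusted fit (adjusted p = 0.237).

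Genes of protein folding and stress in the endoplasmic reticulum went both ways. Of 83 tested genes 13 rose (15.7%, against 13.0% of all) and 15 fell (18.1%, against 12.4%), and 19 rose and 4 fell in the adjusted fit. Without control replicate 1, 5 were higher and 8 lower. eif2ak3, the sensor kinase known as PERK, rose from 1.49, 1.57 and 1.31 FPKM to 4.02, 4.88 and 3.73 FPKM (1.26 ± 0.12, limma adjusted p = 0.000638). xbp1, a transcription factor of this response, rose by 0.49, and both copies of DNAJB9, a co-chaperone, by 0.92 and 0.81. The disulfide isomerase genes PDIA4 and pdia3 fell by 1.01 and 0.64, and creld2 by 0.74. All of these calls held in the adjusted fit. Another PDIA3 gene fell by 0.51 and lost its call there (adjusted p = 0.108). Of 57 heat shock genes 8 rose and 6 fell, near the 13.0% and 12.4% of all genes. The adjusted fit had 11 higher and 6 lower, against 10.6% and 8.46% of all. hsp47, a collagen chaperone, rose by 0.86, while the heat shock regulator hsf1 went from 47, 44.4 and 46.1 FPKM to 28.1, 30.2 and 29.5 FPKM (-0.64 ± 0.08), and both copies of the co-chaperone STIP1 fell by 0.73 and 0.74. Of 93 autophagy and lysosome genes 11 rose (11.8%, against 13.0% of all) and 15 fell (16.1%, against 12.4%), with 9 and 9 in the adjusted fit.

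Plasma defence proteins were lower more often than higher, and genes of inflammatory signalling higher more often than lower. Of 141 acute phase, complement and coagulation genes 63 were lower (44.7%, against 12.4% of all) and 5 higher (3.55%, against 13.0%). The adjusted fit had 18 lower and 13 higher, against 8.46% and 10.6% of all, and 27 were lower without control replicate 1. cfi, complement factor I, went from 953, 842 and 994 FPKM to 525, 579 and 530 FPKM (-0.77 ± 0.09) and C1ra fell by 0.82, both also in the adjusted fit. STEAP4 and haptoglobin (HP), which are induced by inflammation and handle iron or hemoglobin, rose by 0.53 and 0.40. Of 106 inflammation and NF-kappa-B genes 20 rose (18.9%, against 13.0% of all) and 6 fell (5.66%, against 12.4%). Of these, 15 and 6 were also called in the adjusted fit. The FPKM share of the list rose from 0.115% ± 0.0123 to 0.150% ± 0.0154 (SD, n = 3) without overlap. The NF-kappa-B subunit RELA rose from 8.30, 7.36 and 9.32 FPKM to 16.5, 15 and 15.4 FPKM (0.87 ± 0.11), and Stat3 rose by 0.70 ± 0.09. Without moderate hypoxia replicate 1, 8 of the 106 genes were called higher, beside 1099 of all 14130, so the list then held no excess of higher genes. The chemokine genes CCL24 and a CXCL11-like gene fell by 1.37 and 1.03. Of 61 interferon response genes 4 rose (6.56%, against 13.0% of all) and 6 fell (9.84%, against 12.4%), with 7 and 4 in the adjusted fit. TRIM25 was higher by 0.92. The antimicrobial peptide genes split, leap2 rising by 0.61 and leap-2b falling by 0.89.

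Iron and heme genes were called about as often as all tested genes. Of 68 such genes 10 rose (14.7%, against 13.0% of all) and 8 fell (11.8%, against 12.4%), with 13 and 4 in the adjusted fit. FTH, an iron storage ferritin, rose from 70.4, 69.1 and 79.9 FPKM to 117, 123 and 117 FPKM (0.70 ± 0.09), and the transferrin receptor gene tfr1a fell by 0.76 while TFRC rose. Of 33 genes for demethylases that use oxygen, 11 rose (33.3%, against 13.0% of all) and none fell (against 12.4%). The adjusted fit had 6 higher, against 10.6% of all, and 6 were higher without control replicate 1. Their FPKM share went from 0.0122% ± 0.000298 to 0.0186% ± 0.00169 (SD, n = 3). These genes are long, with a median span of 28.7 kb. ALKBH7 rose by 1.18, KDM3B by 0.59, Kdm5c by 0.56 and both jmjd6 copies by 0.61 and 0.47, all also in the adjusted fit, while both KDM4B copies (0.48 and 0.38) lost their calls there. Of 52 cullin ligase genes 9 rose (17.3%, against 13.0% of all) and 2 fell (3.85%, against 12.4%), with 9 and 4 in the adjusted fit. Both klhl25 copies, adaptors of a cullin ligase, rose by 0.73 and 0.84, and the adaptor Skp1 fell by 0.64.

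Markers of other cells in the tissue went in both directions, with few genes called. In bulk liver, fewer cells of a type and less RNA per cell cannot be told apart. Of 24 tested red cell genes 3 hemoglobin genes were lower (12.5%, against 12.4% of all genes) and none higher, with none called in the adjusted fit. The red cell share of FPKM overlapped at 0.475% to 0.539% in control and 0.344% to 0.564% in moderate hypoxia. Of the 58 red cell genes listed, 27 were at 0 in all 6 libraries. Macrophage genes fell in 3 of 11 cases (27.3%, against 12.4% of all genes), among them Marco (-0.73) and macrosialin (-0.69). Their share went from 0.0222% ± 0.00076 to 0.0195% ± 0.00175 without overlap, with 10 of 39 listed genes at 0 throughout. The adjusted fit called 2 of these 3 macrophage genes. Of 5 lymphocyte genes 2 fell, CD79A (-0.71) and an immunoglobulin heavy chain model (-0.80), both also in the adjusted fit, and the lymphocyte share went from 0.00341% ± 0.00052 to 0.00267% ± 2.52e-05 without overlap. Granulocyte genes were lower in 2 of 10 cases, 1 of them also in the adjusted fit. Endothelial genes rose in 2 of 11 cases (18.2%, against 13.0% of all genes), kdr (0.44) and vwf (0.50), whose call was lost in the adjusted fit (adjusted p = 0.238). The endothelial share of FPKM went from 0.00463% ± 0.000138 to 0.00615% ± 0.000468 without overlap, while the list median was 0.12 log2 and -0.02 in the adjusted fit. Of 13 stellate cell and fibroblast genes 2 rose (15.4%, against 13.0% of all genes), hand2 (0.44) and col1a1a (0.37), both also in the adjusted fit. Rgs5 fell by 0.47, which was not called there (adjusted p = 0.0676). Their share went from 0.0179% ± 0.00201 to 0.0252% ± 0.00343 without overlap (SD, n = 3 for each share). None of 11 exocrine pancreas genes passed the test, although their share reached 0.0180% in moderate hypoxia library 2 against 0.00194% and 0.00213% in the other 2, and no muscle marker passed the abundance filter. The part of these cell types in the results above was not tested.

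Duplicated genes mostly moved together when both moved. Among 2653 pairs of tested genes that share a symbol, both members were called in the same direction in 309 pairs (180 higher, 129 lower) and in opposite directions in 15. The adjusted fit had 168 pairs in the same direction (118 higher, 50 lower) and 13 in opposite directions. In 747 pairs only 1 member was called before adjustment. Of the same pairs, 3 had identical values, so that reads may have been shared between the copies. An example of opposite movement is Fpgs, which adds glutamate to folate: one copy rose from 7.44, 6.15 and 8.03 FPKM to 11.1, 11.4 and 13.9 FPKM (0.71 ± 0.13), the other fell from 3.67, 3.24 and 3.63 FPKM to 2.35, 2.44 and 2.45 FPKM (-0.46 ± 0.10). SMAD3, of TGF-beta signalling, had one copy higher by 0.65 and one lower by 0.84. CYP8B1, of bile acid synthesis, had a rise of 0.46 in one copy and a fall of 0.31 in the other that was lost in the adjusted fit (adjusted p = 0.698).

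Moderate hypoxia was also tested against acute hypoxia directly. Of 13979 genes tested, 1388 were higher in moderate hypoxia (9.93%) and 1383 lower (9.89%), and the total fell to 1339 genes without moderate hypoxia replicate 1. Gene span ran with this comparison too, with medians of -0.12 in the shortest and 0.17 in the longest genes. The adjusted fit called 1210 genes higher (8.66%) and 997 lower (7.13%), of which 972 and 868 were the same genes. The moderate hypoxia libraries are shared with the comparison above, so values are given side by side only. fih1 held deposited values of 31.7, 35.7 and 30.4 FPKM in acute hypoxia, and it was 2.35 log2 lower in moderate than in acute hypoxia (limma adjusted p = 0.000119). The hmox copies were 0.71 and 0.93 lower, Tat 0.71 lower, egln1 1.01 lower and EGLN2 0.84 lower than in acute hypoxia. In the adjusted fit Tat and the first hmox gene lost their calls against acute hypoxia (adjusted p = 0.0566 and 0.101). Of 30 glycolytic genes 14 were lower in moderate than in acute hypoxia and 2 higher (9 and 1 adjusted). FKBP5 and PPARA gave -0.10 and 0.10 (adjusted p = 0.617 and 0.665).

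Further genes with called differences from control are set beside acute hypoxia here. cyp1a3 and cyp1a1, low in moderate hypoxia, were 2.39 and 2.08 log2 lower than in acute hypoxia, where cyp1a3 held deposited values of 305, 263 and 249 FPKM. Nqo1 was 1.29 lower and DKC1 1.44 and 1.40 lower than in acute hypoxia. GABRB2 was 2.63 higher, foxo1a 1.05 higher in one copy and -0.20 in the other (adjusted p = 0.288), and RELA 0.50 higher. The apolipoprotein A-IV gene was 2.81 higher in moderate than in acute hypoxia, where it held 1.67, 0.672 and 0.810 deposited FPKM, so it was intermediate between control and acute hypoxia. One of the 3 egr1 genes was 1.0 log2 higher in moderate than in acute hypoxia (adjusted p = 0.0141), and the other 2 gave 0.70 and 0.32 (adjusted p = 0.0534 and 0.129). Of 35 cholesterol genes 13 were higher in moderate than in acute hypoxia and none lower, against 9.93% and 9.89% of all (17 and none adjusted, against 8.66% and 7.13%).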

How the data were processed

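Liver total RNA was sequenced, and the 9 libraries were grouped by labelled treatment, 3 to a group. The authors deposited, per the file headers, an FPKM for every gene in each library, together with their own log2 fold changes, p-values and false discovery rates, which were not used here. Bowtie2 2.2.8 and TopHat2 2.1.1 are named in the submitters' processing notes; the genome build and counting tool are not given in the sources used here. Read counts were not used, so depth is given only relative to control library 1. Each comparison used the deposited table that holds both of its groups; the moderate hypoxia values are the same in both tables (largest difference 0).

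Genes with a mean of at least 1 deposited FPKM were kept. A gene under 1 FPKM in its lower group could pass through the other group alone. Among the genes named, those that did so include zbtb16a, Arntl, both phka2 genes, PDP1, EGLN2, mcm2, mcm3, CCL24, the CXCL11-like gene and UBB. In deposited FPKM, the control means of vegfaa and of an sdha copy were also just under 1. FPKM were divided by median-of-ratios size factors, and log2(value + 0.5) was modelled in R 4.3.3 by limma 3.58.1 (lmFit, then eBayes with a mean trend), without covariates. Tests are two-sided, with Benjamini-Hochberg adjustment over all tested genes and adjusted p under 0.05 as the threshold, and ± after a log2 difference is the standard error. Tested on simulated data of 14130 genes for moderate hypoxia against control, the fit recovered 81% of genes changed by 1 log2 and 32% of those changed by 0.5 log2. The simulation changed 100 genes of each size, with independent noise and no trend over gene span or abundance. The data held many more calls and both trends, so these percentages may not carry over to them. The adjusted fit used cyclic loess scaling and then removed, in each library, a loess trend over log10 gene span. Gene spans come from a RefSeq annotation table whose build may differ from that of the files. Genes were named by a rule: the 15 highest and 15 lowest among genes with a log2 difference of at least 1 groups apart and a product name (ATP8 and ND3 carry none), up to 4 genes per list and direction by p, and all called HIF genes; pairs of copies that moved in opposite directions were chosen after their values were seen. The members and lists were chosen with earlier results of these data known. Promoter motifs and the long noncoding RNA named in the study's design were not analysed here. Single values of some genes that count in the list totals are not reported here.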

Additional observations from a re-analysis of the deposited data

How the results depend on the processing

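Scaling, filters and single libraries all moved the counts. For moderate hypoxia against control (3592 genes called, 1838 higher and 1754 lower), the deposited FPKM without scaling gave 3257 higher and 676 lower, no abundance filter gave 1162 higher, a filter at 5 FPKM gave 1358 (739 higher, 619 lower), and a minimum log2 difference of 1 gave 285 (163 and 122). Leaving out 1 library in turn gave 1757 to 2848 called, 945 to 1467 higher and 812 to 1381 lower. For moderate against acute hypoxia the deposited FPKM gave 3582 higher and 504 lower, and leaving out 1 library gave 1339 to 2346 called, 637 to 1189 higher and 702 to 1157 lower. Over all list genes (761 called, 213 higher and 548 lower), deposited FPKM gave 422 higher and 233 lower, quantile scaling 362 lower, cyclic loess scaling 351 lower, the adjusted fit 265 lower, and leaving out 1 library 389 to 624 called, 120 to 186 higher and 269 to 444 lower, the lowest each time without control replicate 1. Of the 175 genes considered for the text, 133 kept their call in every alternative. One reversed: the FBP1 gene that fell by 0.30 stood at 0.05 after adjustment for gene span and abundance. The cause of these changes was not tested.

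Replicate numbers did not pair the libraries: deviations of same-numbered control and moderate hypoxia libraries correlated at 0.0668, -0.0559 and -0.1302. With the replicate number as a block 2531 genes were called (1309 higher, 1222 lower), and 2176 with cyclic loess scaling as well (1202 and 974); against acute hypoxia the block gave 1839 (900 higher).

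Gene span includes introns, so the adjustment for length is partial. Without read counts, the precision of low FPKM is unknown.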

Other observations

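Gene models assembled by the authors without an annotated gene ID made up 145 of the tested genes. Of these, 31 were higher and 14 lower in moderate hypoxia, against 13.0% and 12.4% of all tested genes. They have no gene span, so the adjustment for span was not applied to them. Further same-symbol pairs called in opposite directions were chosen after their values were seen. One DOCK1 gene, a regulator of cell movement, fell from 39, 34.7 and 33.6 FPKM to 9.54, 16.3 and 19.4 FPKM (-1.27 ± 0.22, limma adjusted p = 0.00499), while another rose by 0.66 and lost its call in the adjusted fit (adjusted p = 0.27). For TMLHE, the first enzyme of carnitine synthesis, one copy fell by 0.67 and the other rose by 0.45, in both fits. For NT5C3A, a nucleotidase of pyrimidine breakdown, one copy fell by 0.62 and the other rose by 0.56, in both fits.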
